A study of Danio rerio with 12 samples.

Results

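The genes described here encode enzymes that build heme. They were taken from the count tables by symbol, whatever the case: alas1, alas2, alad, uros, urod, cpox, ppox and fech. All 8 had a row of their own, among 31778 genes in the tables, and all 8 passed the filter on low counts in every comparison. Their levels and their partition between 2 subcellular fractions were measured in zebrafish larvae at 5 days post fertilization (dpf). WT larvae came from incrosses of mia40a+/+ fish, and mutant larvae (mia40a-/- in the labels, chchd4a-/- in the methods) from incrosses of heterozygotes. Both carried the transgene Tg(Xla.Eef1a1:mlsEGFP)cms1, in which an Eef1a1 promoter of Xenopus drives EGFP targeted to mitochondria. Mutant larvae were picked under a fluorescence microscope before fractionation, a step that WT larvae did not go through. Many larvae were pooled for each fractionation, so that a library holds RNA of whole larvae and of all their cell types. The membrane-bound fraction (MB) was the pellet at 14000 g of a homogenate cleared of nuclei and debris. The high-speed fraction (HS) was the pellet at 100000 g of what remained. The isolation buffer held magnesium and cycloheximide to keep ribosomes intact. By the authors' Western blots, MB held mitochondria and endoplasmic reticulum (ER), and part of the ER was in HS. They take HS to hold ER-bound ribosomes and free polysomes. MB/HS is therefore not a ratio of mitochondria to cytosol. There were 3 libraries for each fraction and genotype, 12 in all, each from 2 μg of RNA with ERCC spike-ins added before polyA capture. The labels number the replicates without saying whether they came from separate clutches, so that p-values measure the spread between these libraries.

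Heme is made by a chain of enzymes that starts and ends inside mitochondria and runs through the cytosol in between. All of them are encoded in the nucleus and made on cytosolic ribosomes, so the enzymes of the first and last steps must be imported. The first step, which joins glycine and succinyl-CoA, limits the flux and is run by alas1 in most tissues and by alas2 in erythroid cells, where most heme goes into hemoglobin. The liver is another large user of heme, mainly for cytochromes P450. Chchd4a, known in yeast as Mia40, is an oxidoreductase of the mitochondrial intermembrane space that traps small cysteine-rich proteins on import.

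The genes of a library summed to between 45621537 and 96059916 counts. Levels are given in CPM, counts scaled to a common library size after scaling by TMM (trimmed mean of M values). They are not divided by transcript length, so that no level is compared between members. Sums over marker lists, and rhag set beside gata1a, are given below without a correction for length. WT HS replicate 1 stood apart. Spike-ins took 30.0% of its counts, against 1.77% to 14.2% in the other libraries, and it correlated with WT HS replicates 2 and 3 at 0.921 and 0.899 across genes, while those correlated at 0.993. Among the heme synthesis genes, it had the lowest of the 3 WT HS values for 4 of 8 and the highest for 2. The spike-in share also differed between genotypes without overlap. In HS it was 9.82% to 30.0% in WT and 3.15% to 8.21% in the mutant, and in MB 2.88% to 7.22% and 1.77% to 2.68%. Its part in the calls between genotypes was not tested. The 13 mtDNA genes that encode proteins, which mark the MB fraction, took 11.7% to 17.7% of gene counts in WT MB, 5.01% to 9.46% in mutant MB and 1.19% to 1.87% in HS. Transcripts of chchd4a itself were at 3.80, 11.997 and 12.4 CPM in WT HS and at 17.5, 11.3 and 27.0 CPM in mutant HS. In MB they were at 4.57, 5.27 and 5.46 CPM in WT and at 6.68, 7.89 and 8.18 CPM in the mutant. The mRNA of the mutated gene was thus not lower in the mutant in either fraction, and its level does not check the genotype labels.

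The members have these identifiers in the tables. The mitochondrial steps are alas1 (ENSDARG00000021059), alas2 (ENSDARG00000038643), cpox (ENSDARG00000062025), ppox (ENSDARG00000102167) and fech (ENSDARG00000003462). The cytosolic steps are alad (ENSDARG00000100372), uros (ENSDARG00000027491) and urod (ENSDARG00000006818). Counts per library ran from 34 for fech to 24248 for alas1.

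Alas1 and alas2 make 5-aminolevulinate in the mitochondrial matrix. In WT, alas1 was at 113, 128 and 99.0 CPM in HS replicates 1, 2 and 3 and at 138, 114 and 122 CPM in MB. In chchd4a-/- it was at 261, 365 and 254 CPM in HS and at 175, 118 and 196 CPM in MB. The 3 mutant HS libraries lay above the other 9 libraries, and the WT fractions overlapped. The mean in HS rose from 113 ± 14.6 CPM (SD, n = 3) in WT to 293 ± 61.9 CPM in the mutant, which is 2.59-fold (log2 1.37, SE 0.24, 95% interval 0.84 to 1.90, adjusted p = 0.0043 from the quasi-likelihood test of edgeR, as are all adjusted p below, each taken over all genes of a comparison). This was the only member called higher in mutant HS, where 7.25% of 23452 genes tested were called higher. In MB the means were 124 ± 12.4 and 163 ± 40.2 CPM, which gave a log2 difference of 0.39 (SE 0.24, adjusted p = 0.64).

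The call for alas1 in HS was made under 13 of 15 alternative settings. It was not made when the fit held only the 6 HS libraries (log2 1.38, adjusted p = 0.059), a fit that called 0 genes of any kind (5181 at an unadjusted p under 0.05), nor relative to the shift of all genes when libraries were scaled by spike-ins (log2 1.47, adjusted p = 0.70). Leaving out any one HS library kept the log2 difference between 1.15 and 1.47.

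Alas2 was at 4.89, 9.51 and 8.80 CPM in WT HS and at 8.97, 13.3 and 14.0 CPM in mutant HS, with WT replicate 2 above mutant replicate 1. In MB it was at 5.48, 6.41 and 7.22 CPM in WT and at 6.66, 4.98 and 8.33 CPM in the mutant. Its log2 difference between mutant and WT was 0.64 in HS (SE 0.29, adjusted p = 0.13) and 0.06 in MB (SE 0.29, adjusted p = 0.97). The difference between the responses of alas1 and alas2 was not tested.

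**Figure D1:**
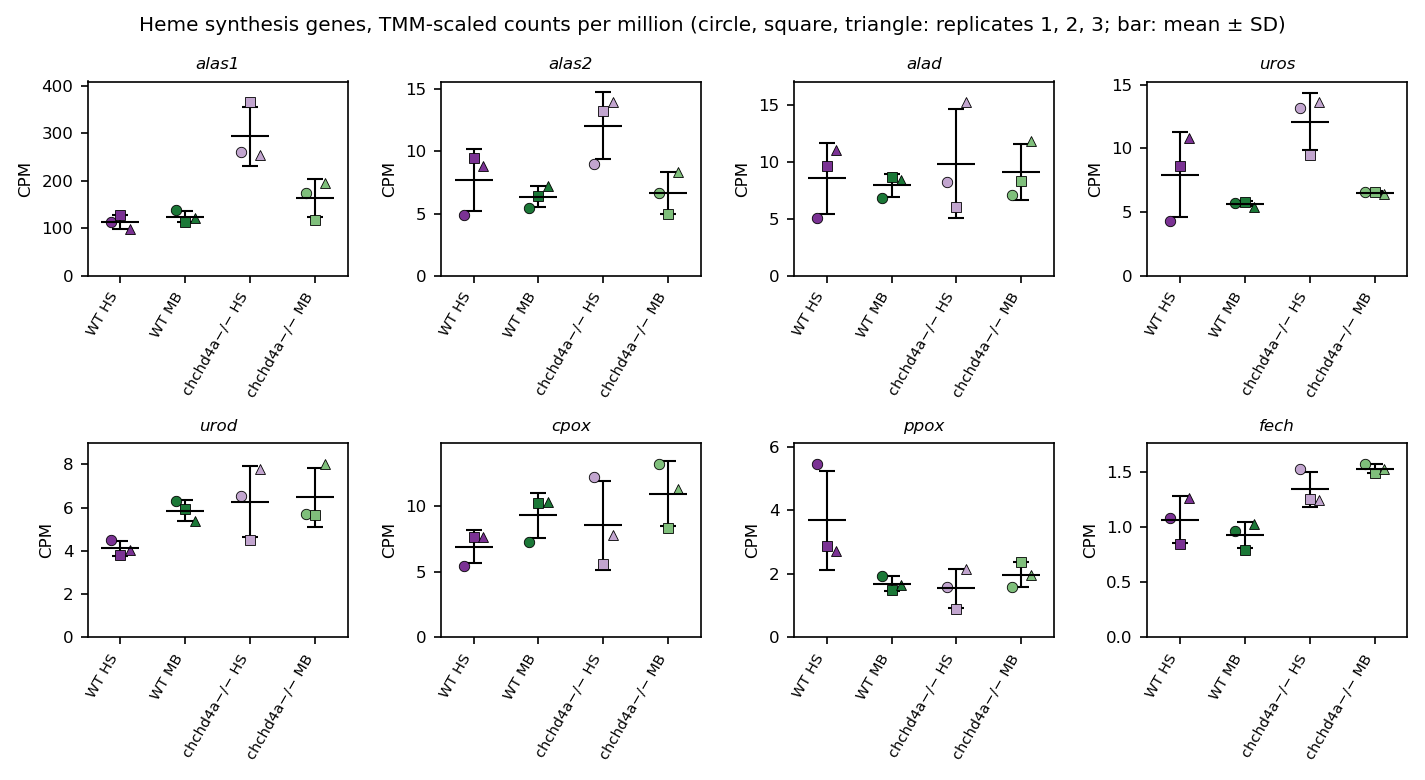
Level of each heme synthesis gene in CPM (vertical axes, from 0, a scale of its own for each gene) in the 4 groups of 3 libraries, in the order of the pathway, with the mean and SD as bars. The 3 mutant HS libraries of alas1, at 254 to 365 CPM, lie above all others, and the ppox value of 5.46 CPM in WT HS replicate 1 lies well above the other ppox values.

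Between the fractions, alas1 was not called in WT (log2 MB/HS 0.14, SE 0.20, 95% interval -0.33 to 0.60, adjusted p = 0.63) and was 1.89-fold lower in MB than in HS in the mutant (log2 -0.92, SE 0.28, 95% interval -1.55 to -0.29, adjusted p = 0.031). That call was lost in 5 of 14 alternatives, without HS replicate 1 (adjusted p = 0.061), without MB replicate 1 (0.082), 2 (log2 -0.65, 0.13) or 3 (0.0503), and by spike-ins (0.28). Alas2 was called for the HS fraction in the mutant too (log2 -0.92, SE 0.27, adjusted p = 0.026), where its 3 MB values, at most 8.33 CPM, all lay below its 3 HS values, at least 8.97 CPM. This call was lost in 3 of 14, without MB replicate 1 (adjusted p = 0.088) or 2 (log2 -0.67, 0.12) and by spike-ins (0.36). In WT it was at log2 -0.28 (SE 0.29, adjusted p = 0.50). Whether the partition differed between genotypes was tested as the difference of the log2 ratios. For alas1 that difference was -0.98 (SE 0.34, 95% interval -1.72 to -0.25, adjusted p = 0.23) and for alas2 -0.57 (SE 0.41, adjusted p = 0.57). Neither passed, and so a call in the mutant and none in WT does not show that the genotypes differ. Of 23452 genes, 0% passed this test by edgeR without a block for the replicate number (0 genes, against 3374 at an unadjusted p under 0.05). With that block, which pairs the fractions, edgeR called 796 genes, by library totals without it 340, and DESeq2 810, and none of the 8 members was among the calls of any of these fits.

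Alad joins 5-aminolevulinate into porphobilinogen. Uros closes a linear tetrapyrrole into a ring, and urod trims the side chains of that ring. Uros had MB values close to each other, 5.74, 5.80 and 5.42 CPM in WT and 6.54, 6.59 and 6.38 CPM in the mutant. Its HS values were 4.28, 8.65 and 10.8 CPM in WT and 13.2, 9.51 and 13.6 CPM in the mutant. Every mutant HS library thus lay above every mutant MB library, whereas in WT replicate 1 of HS lay below all WT MB values. In the mutant, uros was 1.93-fold lower in MB than in HS (log2 -0.95, SE 0.20, 95% interval -1.41 to -0.49, adjusted p = 0.0077). That call was lost in 1 of 14 alternatives, the scaling by spike-ins (adjusted p = 0.42).

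Urod was at 4.50, 3.79 and 4.04 CPM in WT HS and at 6.31, 5.92 and 5.36 CPM in WT MB. It was the only member whose WT MB libraries all lay above its WT HS libraries, as did those of 26.0% of all genes tested, and the fitted ratio was 1.43-fold (log2 0.52, SE 0.20, adjusted p = 0.094). In the mutant it was at a log2 MB/HS of -0.01 (SE 0.26). Alad ran from 5.01 to 15.2 CPM over the 12 libraries and its largest log2 difference in any comparison was 0.20.

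Cpox oxidizes coproporphyrinogen in the intermembrane space and ppox makes protoporphyrin on the inner membrane, where fech inserts the iron. Ppox stood out in WT HS. It was at 5.46, 2.86 and 2.71 CPM there, and at 1.93, 1.48 and 1.64 CPM in WT MB. In the mutant it was at 1.58, 0.89 and 2.13 CPM in HS and at 1.58, 2.36 and 1.97 CPM in MB. The 3 WT HS libraries were the highest of all 12, with replicate 1 far above the other pair. In WT, ppox was 2.16-fold lower in MB than in HS (log2 -1.11, SE 0.33, 95% interval -1.88 to -0.34, adjusted p = 0.045), and its MB libraries all lay below its HS libraries, as did those of 20.8% of all genes. In HS it was 2.38-fold lower in the mutant than in WT (log2 -1.25, SE 0.36, 95% interval -2.02 to -0.48, adjusted p = 0.028), the only member called lower there, where 12% of genes were. In the mutant the MB/HS ratio had the other sign (log2 0.31, SE 0.33, adjusted p = 0.48). The difference of the 2 ratios, 1.48 (SE 0.50, 95% interval 0.41 to 2.55), did not pass over all genes (adjusted p = 0.22, and 0.074 to 1.0 over the alternatives).

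The ppox calls did not hold in every fit with 1 library left out. In WT the adjusted p was above 0.05 without HS replicate 2 (log2 -1.27, adjusted p = 0.079) or 3 (-1.41, 0.054), and without MB replicate 1 (-1.22, 0.089), 2 (-1.12, 0.18) or 3 (-1.19, 0.18). In each of these 5 fits the ratio was no smaller than with all libraries, and the calls over all genes fell from 6113 to between 0 and 4072. The fit without MB replicate 2 called 0 genes (6596 at an unadjusted p under 0.05) and that without MB replicate 3 called 1. Those without HS replicate 2, HS replicate 3 or MB replicate 1 called 2144, 3304 and 4072. The cause of the ppox losses was not tested. Without HS replicate 1 the call was kept, at a smaller size (log2 -0.72). The call between genotypes in HS was not made without WT replicate 1 (log2 -0.83, adjusted p = 0.092), nor without mutant replicate 1 (-1.28, 0.085) or 2 (-1.02, 0.075), in fits that called 1932 to 3677 genes, against 4510 with all libraries.

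Cpox was at 5.46 to 7.64 CPM in WT HS, 7.27 to 10.3 CPM in WT MB, 5.56 to 12.2 CPM in mutant HS and 8.32 to 13.2 CPM in mutant MB. All 4 ranges overlapped except that of WT HS with mutant MB, and its log2 MB/HS was 0.43 (SE 0.25, adjusted p = 0.22) in WT and 0.31 (SE 0.30, adjusted p = 0.43) in the mutant. Fech was at 0.97, 0.79 and 1.03 CPM in WT MB and at 1.58, 1.49 and 1.53 CPM in mutant MB. The mutant MB libraries lay above all WT libraries of either fraction, with a log2 difference in MB of 0.72 (SE 0.24, 95% interval 0.21 to 1.23), but this did not pass over all genes (adjusted p = 0.29). In HS fech was at 1.09, 0.84 and 1.27 CPM in WT and at 1.53, 1.26 and 1.24 CPM in the mutant, and the groups overlapped. Its log2 MB/HS was -0.20 (SE 0.27) in WT and 0.13 (SE 0.25) in the mutant.

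Over the 8 members, 1 in WT and 3 in the mutant were called between the fractions, where 25.8% and 37.1% of all genes were called in either direction. Of the 8 members in WT, 0 were called for MB and 1, ppox, for HS, where 12.4% and 13.3% of 23733 genes were called, and at an unadjusted p under 0.05 there were 2 members, ppox and urod. The median log2 MB/HS of the members was -0.15, against 0.08 for all genes. In chchd4a-/-, 0 members were called for MB and 3 for HS (alas1, alas2 and uros), where 17.0% and 20.0% of 23854 genes were called. These were also the 3 members with every MB library below every HS library, which 23.8% of all genes showed. The median of the members was -0.09, against -0.01 for all genes. DESeq2 gave the same numbers of called members as edgeR in both genotypes. Of the mtDNA transcripts, 13 of 13 were called for MB in WT and 7 of 13 in the mutant. The difference of their ratios between genotypes was called for 0 of 13 by edgeR (10 at an unadjusted p under 0.05) and for 2 by DESeq2. Their part in the members' ratios was not tested.

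In WT these counts moved with the libraries in the fit, as did those over all genes. Without HS replicate 1, 3 members were called for HS (alas2, uros and ppox) and 1, urod, for MB, in a fit that called 57.8% of all genes in either direction, against 25.8% with all libraries. Without replicate 1 of both WT fractions, 3 were called for HS and 2 for MB (cpox and urod), where 70.1% of all genes were called. Without any one of the other 5 WT libraries, 0 members were called, and 0% to 17.4% of all genes. In the mutant, the number called for HS fell to 2 without HS replicate 1, to 1 without MB replicate 1 or 2, and to 2 without MB replicate 3, with uros called each time, in fits that called 21.2% to 28.0% of all genes, against 37.1% with all libraries. These counts are relative to the bulk of the genes. When libraries were scaled by spike-ins, which moved the median log2 MB/HS of all genes to 2.62 in WT and 1.92 in the mutant, 6 members in WT and 5 in the mutant were called for MB and 0 for HS, where 75.1% and 76.1% of all genes were called in either direction.

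**Figure D2:**
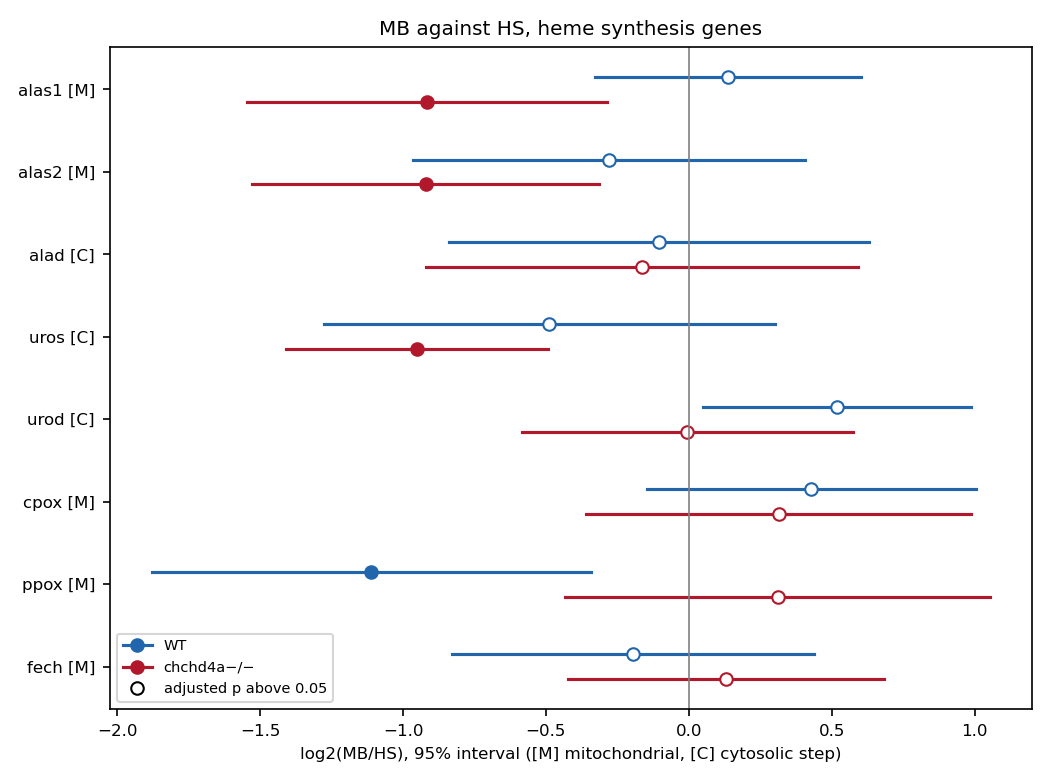
Log2 ratio of MB over HS (horizontal axis) with its 95% interval for each heme synthesis gene in WT and chchd4a-/-, with filled points for an adjusted p of at most 0.05. In WT only ppox is called, at -1.11, and in the mutant alas1, alas2 and uros are called, between -0.95 and -0.92, and come from both mitochondrial [M] and cytosolic [C] steps.

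The enzymes that are imported into mitochondria were compared with those that stay in the cytosol. The median log2 MB/HS of the 5 mitochondrial steps was -0.20 in WT (from -1.11 to 0.43) and 0.13 in the mutant (from -0.92 to 0.31). That of the 3 cytosolic steps was -0.10 in WT (from -0.49 to 0.52) and -0.17 in the mutant (from -0.95 to -0.01). Each class held members on both sides of 0 except the cytosolic steps in the mutant, all 3 of which were below it. In WT, 1 mitochondrial and 0 cytosolic members were called for HS, and in the mutant 2 and 1.

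A score per library made the same comparison, the mean log2(CPM + 0.5) of the mitochondrial steps minus that of the cytosolic steps, centred on the mean of all 12 libraries. It was 0.46, 0.02 and -0.20 in WT HS and -0.07, -0.17 and 0.04 in WT MB. In the mutant it was -0.04, 0.24 and -0.40 in HS and 0.24, -0.07 and -0.05 in MB. The groups overlapped in both fractions and both genotypes. MB minus HS came to -0.16 in WT and 0.11 in the mutant, and mutant minus WT came to -0.16 in HS and 0.11 in MB. Each difference was smaller than the pooled SD of its libraries, which ran from 0.14 to 0.33. Without WT HS replicate 1 the difference in WT was 0.02 and that between genotypes in HS 0.02. Without alas1 in the score, mutant minus WT in HS came to -0.43, against a pooled SD of 0.33 with all members. Mutant MB minus HS then came to 0.28, against 0.26.

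**Figure D3:**
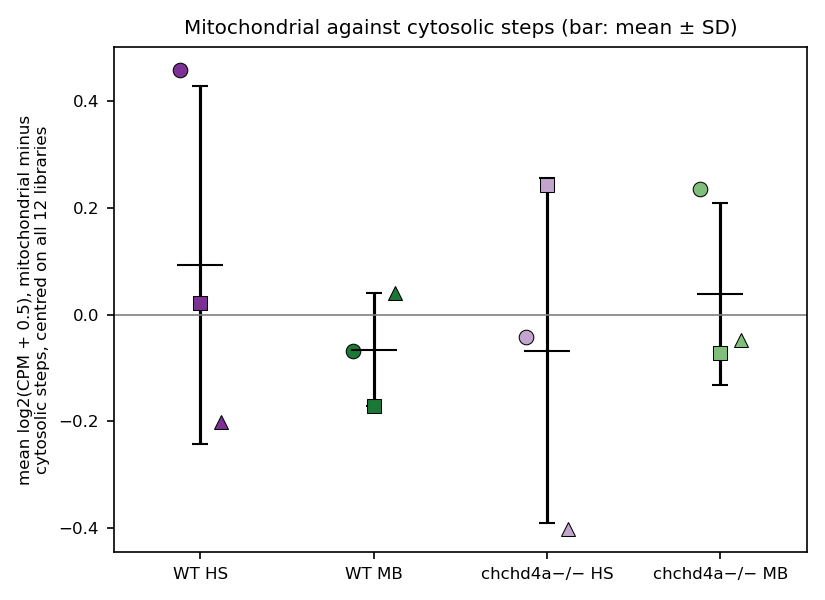
Score of mitochondrial minus cytosolic steps (vertical axis, log2 units, centred on all libraries) in the 3 libraries of each group, with the mean and SD as bars. The widest spread is in the HS groups, from -0.20 to 0.46 in WT and from -0.40 to 0.24 in the mutant, and the ranges of all 4 groups overlap.

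Between genotypes, 7 of 8 members had a log2 difference above 0 in HS and 8 of 8 in MB, against 53.5% and 47.2% of all genes. The exception was ppox in HS. With single libraries left out, some of these values fell below 0. In MB these were alas2 (lowest log2 -0.14), alad (-0.05) and urod (-0.05), and in HS cpox (-0.05) and alad (-0.27). The median over the members was 0.47 in HS and 0.22 in MB, against 0.06 and -0.03 for all genes. In HS, the 3 cytosolic steps lay between 0.20 and 0.61 and none was called, with urod nearest (log2 0.61, SE 0.24, adjusted p = 0.094). In MB no member was called in either direction, in a comparison that called 9 of 23452 genes (0.0384%), nor with the replicate block (53 genes) or by DESeq2 (484 genes), and fech was the 1 member at an unadjusted p under 0.05. There, fech and uros had every mutant library above every WT library, as had 13.9% of all genes. In HS this held for alas1 only, against 16.3% of all genes. Ppox had every mutant HS library below every WT HS library, as had 17.2% of all genes. Scaling by spike-ins moved the median of all genes to 1.82 in HS and called 6 members higher and 0 lower. That fit called 55.5% of all genes in either direction.

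**Figure D4:**
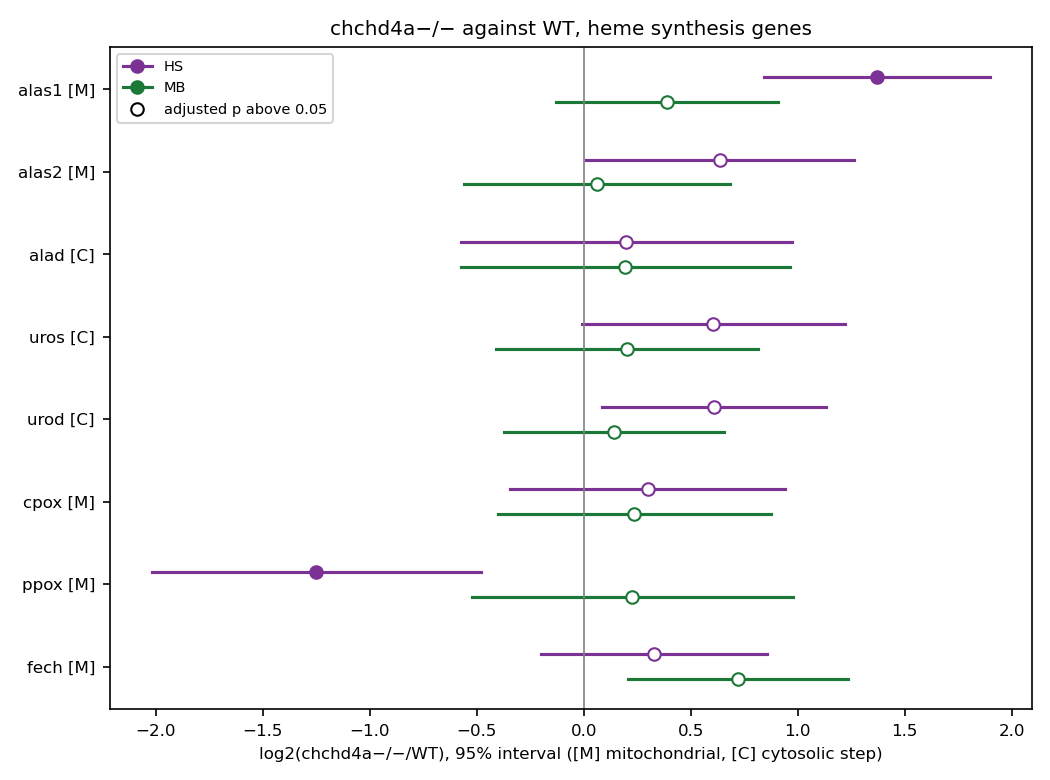
Log2 ratio of chchd4a-/- over WT (horizontal axis) with its 95% interval for each heme synthesis gene in HS and MB, with filled points for an adjusted p of at most 0.05. Only alas1, at 1.37, and ppox, at -1.25, are called, both in HS, and all 8 MB values lie above 0.

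Fewer cells of a type and less RNA per cell cannot be told apart in such bulk samples, and markers of the 2 tissues that make the most heme were therefore read beside the members. In mutant HS, 7.25% of all genes were called higher and 12% lower. Of 16 globin rows, 10 were tested, and 3 were called higher and 0 lower. Their summed level was 655 to 1026 CPM in WT HS and 793 to 2305 CPM in mutant HS, and 4 of the 16 rows were below 0.1 CPM in every library. Of 15 other erythroid markers, 1 was called higher and 3 lower, and their median log2 difference was 0.04, against 0.06 for all genes. Their sum was 331 to 502 CPM in WT HS and 255 to 309 CPM in mutant HS, but 1 row (ENSDARG00000074777) carried this gap. That row was matched to the listed ank1a by human symbol, and the study's supplement names it ank1b. Without this row, a step chosen after its values were seen, the sums were 263 to 290 and 248 to 302 CPM and overlapped. Most of what remained was rhag, at 151 to 223 CPM in HS, a row whose annotation was not checked. The transcription factor gata1a, which defines the lineage, was at 0.40 to 0.84 CPM in HS. Of 11 hepatocyte markers, 1 was called higher and 0 lower, a share near that of all genes. Their sum was 2492 to 3389 CPM in WT HS and 3835 to 5811 CPM in mutant HS, without overlap, and 9 of the 11 had a log2 difference above 0. In MB, 0 markers of these 3 lists were called between genotypes by edgeR or DESeq2, with 1 globin, 4 other erythroid and 0 hepatocyte markers at an unadjusted p under 0.05. Over all genes, 2402 of 23452 were under that value in MB. The part of these markers in the result for alas1 was not tested. Between fractions, 7 of the 10 globin rows tested were called for HS in the mutant and 6 in WT, where 20.0% and 13.3% of all genes were. Of the hepatocyte markers, 5 in the mutant and 9 in WT were called for MB, where 17.0% and 12.4% of all genes were, and 1 in each, fabp10a, for HS (log2 -2.45 and -1.74).

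Heme synthesis also needs glycine and iron brought into mitochondria and porphyrins moved across their membranes. Of 14 genes listed for such mitochondrial transport, 5 were called higher and 1 lower in mutant HS, against 7.25% and 12% of all genes. Their median log2 difference was 0.65. Not all of them are known carriers of glycine, iron or porphyrins. Tspo, an outer membrane protein that binds porphyrins and cholesterol, rose by log2 1.48 (SE 0.27, adjusted p = 0.0047). Fam210b, also of this list, rose by log2 1.19 (adjusted p = 0.0098) and was called in 13 of 15 alternatives. The related carriers slc25a39 and slc25a40, of which human SLC25A39 carries glutathione, rose by 0.86 (SE 0.21, adjusted p = 0.013) and 1.13 (SE 0.25, adjusted p = 0.0093). Slc25a37, mitoferrin of erythroid cells, was at 1.18, 0.99 and 1.15 CPM in WT HS and at 0.31, 0.45 and 0.63 CPM in mutant HS, which was called lower (log2 -1.26, SE 0.33, adjusted p = 0.019). Its paralog slc25a28, mitoferrin of other cells, was called higher (log2 0.71, SE 0.21, adjusted p = 0.036), in 6 of 15 alternatives too. Abcb10, which binds mitoferrin in mouse erythroid cells, was not called in any comparison, and its log2 difference was 0.56 in HS (SE 0.33, adjusted p = 0.24).

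The rows of slc25a38, the glycine carrier, were at 0.99 (SE 0.35, adjusted p = 0.063, ENSDARG00000074533) and 1.45 (SE 0.51, adjusted p = 0.065, ENSDARG00000059805) in mutant over WT HS. Between fractions, 1 of the 14 carriers was called for MB and 1 for HS in WT, and 2 for MB and 6 for HS in the mutant. Over all genes, 12.4% were called for MB and 13.3% for HS in WT, and 17.0% and 20.0% in the mutant. Slc25a28 was the one called for HS in WT, and abcb6 (ENSDARG00000063297), a porphyrin transporter, the one for MB, by log2 1.00 (SE 0.28, adjusted p = 0.038). This abcb6 row was at 0.33 to 0.48 CPM in WT HS and 0.70 to 0.83 CPM in WT MB, and its WT call was made in 7 of 15 alternatives. In the mutant the same row was at 0.26 to 0.86 CPM in HS and 2.06 to 3.69 CPM in MB. It was called for MB there by log2 2.32 (adjusted p = 0.0061), and in 14 of 14 alternatives. The difference of its ratios between genotypes did not pass (adjusted p = 0.30). The other abcb6 row was at log2 0.88 in WT (adjusted p = 0.070) and was not called.

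Fech is an iron-sulfur protein in vertebrates, and genes that assemble iron-sulfur clusters were called for HS. Of 13 assembly genes, 4 were called for HS in WT (13.3% of all genes) and 11 in the mutant (20.0%), with 0 for MB in either, and their median log2 MB/HS was -0.59 and -1.16. Fdx2, a ferredoxin of this pathway, was at -1.60 in WT (SE 0.20, adjusted p = 0.0055) and -1.74 in the mutant (SE 0.22, adjusted p = 0.0012). The heme transporters of the cell membrane and lysosome went the other way. Of 5, 4 in WT (12.4% of all genes) and 3 in the mutant (17.0%) were called for MB and 0 for HS, led by the exporter homolog flvcr2a with log2 2.16 (SE 0.42, adjusted p = 0.014) and 2.00 (SE 0.39, adjusted p = 0.0049). Flvcr2a was low, at 0.06 to 0.16 CPM in WT HS and 0.38 to 0.58 CPM in WT MB, with a lowest count of 2. These differences between lists were not tested.

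Of 9 genes for cellular iron, 2 were called higher in mutant HS (7.25% of all genes), and 0 lower (12%). Slc40a1, the iron exporter ferroportin, rose 2.46-fold (log2 SE 0.32, adjusted p = 0.014) and fth1a, a ferritin heavy chain, by log2 0.95 (SE 0.27, adjusted p = 0.03). Fth1a partitioned to HS (log2 MB/HS -1.35 in WT and -2.53 in the mutant, both called). Between fractions, 2 of the 9 were called for MB and 2 for HS in WT (12.4% and 13.3% of all genes), and 5 and 2 in the mutant (17.0% and 20.0%).

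Of 5 genes of heme breakdown, 0 were called between genotypes by edgeR, although DESeq2 called 3 higher and 1 lower in HS and 4 had an unadjusted p under 0.05 there. Over all genes in HS, edgeR called 19.2% and DESeq2 27.1% in either direction, and 8232 of 23452 had an unadjusted p under 0.05 by edgeR. Hmox1a, the inducible heme oxygenase, was at 3.10, 5.15 and 5.84 CPM in WT HS and at 17.7, 12.6 and 5.80 CPM in mutant HS. In MB it was at 6.10, 15.7 and 10.8 CPM in WT and at 28.98, 35.2 and 13.6 CPM in the mutant. The groups overlapped in both fractions, and the log2 differences of 1.35 in HS (SE 0.46, adjusted p = 0.058) and 1.25 in MB (SE 0.46, adjusted p = 0.35) did not pass. The one call between fractions was hmox2 (ENSDARG00000114695) for HS in the mutant, where 20.0% of all genes were called for HS and 17.0% for MB. Of 4 tested genes that use heme in mitochondria (heme A and cytochrome c assembly), 0 were called between genotypes by edgeR (2 higher in HS by DESeq2, 3 at an unadjusted p under 0.05), and 2 for HS in the mutant, with cox10 at log2 -0.79 (SE 0.19, adjusted p = 0.013). Of 4 genes for matrix proteases that act on ALAS in mammals or yeast, 0 were called between genotypes by either tool (0 in HS and 1 in MB at an unadjusted p under 0.05) and 1, a clpx row, for MB in the mutant (log2 0.78, SE 0.23, adjusted p = 0.029). In MB, 0 genes of any of these pathway lists were called between genotypes by edgeR. DESeq2 called 3 there, all of them carriers, and 4 carriers, 2 genes of heme breakdown and 1 of cellular iron had an unadjusted p under 0.05. Over all genes in MB, DESeq2 called 2.06%, and 2402 of 23452 had an unadjusted p under 0.05 by edgeR.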

How the data were processed

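PolyA RNA from both fractions of WT and mutant larvae was sequenced as stranded paired libraries. The authors estimated counts per transcript with Salmon 1.4.0, as named in the submitters' processing notes, against transcripts of GRCz11 (danRer11) with Ensembl annotation and spike-ins, and the deposited tables hold these expected counts summed per gene before any scaling. Rows cover 31778 genes and 92 spike-ins, and all 12 value columns were used.

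Counts were rounded. Genes with over 50 counts in the 6 libraries of a genotype were tested (in both genotypes for the 12-library fit, which gave mutant against WT and the difference of ratios). Libraries were scaled by TMM, without spike-ins, and tested by edgeR 4.0.16 (R 4.3.3) with quasi-likelihood F tests and Benjamini-Hochberg adjustment over all genes. A gene is called where its adjusted p is 0.05 or less. SE is the log2 difference divided by the square root of F, and 95% intervals use its degrees of freedom. Levels are counts of a library over its scaled total, and 0.5 CPM was added before logs for the score. Libraries held 45621537 to 96059916 counts, but genes with few counts, such as fech (34 to 203) and ppox (58 to 320), also carry counting error. Tests were tried on simulated data.

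Members, lists and tests were chosen with earlier results of these data known. Some results on the pathway are not reported here, and counts, medians and the score cover the 8 members named. The rule for named genes takes chchd4a, every member, slc25a38a, slc25a37, hmox1a and abcb10, up to 4 called genes per list and comparison by size of log2 difference, and 5 neighbours each of alas1, alas2 and fech. Slc25a39, gata1a and rhag were chosen after their values were seen. Symbols came from the study's supplement for 6469 genes and a reference table for 22682. A symbol of the lists with no row under that name was matched by human symbol where possible. Reference coordinates were of another build and were not used here, and no sequence is shown.

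Over 18832 genes, deviations of HS and MB replicates of the same number correlated at 0.605, 0.580 and 0.496 in WT and 0.318, 0.302 and 0.550 in the mutant. Other pairs of numbers reached at most 0.157 in the mutant. In WT, HS replicate 3 correlated more with MB replicate 2 (0.528), and HS replicate 2 with MB replicate 3 at 0.368. The numbers therefore do not show how replicates 2 and 3 pair in WT. Across genotypes, replicates of the same number correlated at -0.195 to 0.331. Alternatives were DESeq2 1.42.0, library totals, TMM without mtDNA genes, spike-in totals, a filter of 10 counts in each library or none, the replicate number as a block, other sets of libraries in the fit, and libraries left out. Values of members under library or spike-in totals are relative to the median of all genes, and counts of calls are not. Figures used Python 3.11.15 and matplotlib 3.10.9.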

Additional observations from a re-analysis of the deposited data

How the results depend on the processing

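The replicate block changed no call: it gave 0 members for MB and 1 for HS in WT, 0 and 3 in the mutant, 1 higher and 1 lower in mutant HS, and 0 for the MB and ratio comparisons, and ppox in WT was at log2 -1.05 (adjusted p = 0.016). For mutant against WT, the block joins replicates of the same number across genotypes. The correlations above do not show these to be paired, so the block is no check of those calls. In WT, members called for MB were 1 by library totals, 6 by spike-in totals, 2 without replicate 1 of both fractions and 0 to 1 with single libraries left out. Those called for HS were 0 by library totals, spike-in totals and no filter, 3 without replicate 1 of both fractions and 0 to 3 with single libraries left out. In the mutant, members for MB were 4 by library totals and 5 by spike-in totals, and members for HS were 0 under both and 1 to 3 with single libraries left out. Of all genes, library totals called 40.8% in WT and 58.2% in the mutant, in either direction. Spike-in totals called 75.1% and 76.1%, and no filter 18.5% in WT. In HS, members higher in the mutant were 6 by spike-in totals, 0 with only the 6 HS libraries and 1 to 2 with single libraries left out. Members lower were 0 by spike-in totals, with only the 6 HS libraries and without replicate 1 of both WT fractions, and 0 to 1 with single libraries left out. Of all genes, these HS fits called 55.5% by spike-in totals and 0 with only the 6 HS libraries. They called 16.3% without replicate 1 of both WT fractions and 8.26% to 23.4% with single libraries left out. The cause of these changes was not tested, other than that library and spike-in totals move all genes, the medians of MB/HS to 0.58 and 2.62 in WT and 0.81 and 1.92 in the mutant. No member was called in MB between genotypes, or for the difference of ratios, under any alternative run, and no called log2 value of a member, taken relative to that shift, changed sign. The score is a difference within a library, so a change of scaling nearly cancels out and such alternatives could hardly move it. Its differences stayed within 1 SD of the main value under every alternative. That margin also took in the move from -0.16 to -0.43 in HS (mutant minus WT) without alas1. Without single libraries the differences ran from -0.31 to 0.02 (WT, MB minus HS), -0.06 to 0.26 (mutant, MB minus HS), -0.32 to 0.02 (HS, mutant minus WT) and 0.01 to 0.16 (MB, mutant minus WT). With 3 libraries a group, the spread between libraries limits which differences can be called. Beyond the members, and leaving library and spike-in totals aside, called genes of iron-sulfur assembly on the HS side ran from 0 to 10 in WT and from 5 to 12 in the mutant, heme transporters on the MB side from 0 to 5 and from 2 to 4, globins on the HS side from 0 to 9 and from 3 to 10, and carriers and globins higher in mutant HS from 0 to 7 and from 0 to 5.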

Other observations

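Neighbours of 3 members were sought among 18831 genes with a mean of at least 1 CPM, by Pearson's r of log2(CPM + 0.5) over the 12 libraries. The libraries share fraction, genotype and depth, so r describes them and was not tested. For alas1, the genes with the highest r were farsa (0.945), a subunit of phenylalanyl-tRNA synthetase, gpd1c (0.941), a glycerol-3-phosphate dehydrogenase, cdh7b (0.930), dnpep (0.922) and ANKS3 (0.921). For alas2 they were tnfsf10l4 (0.960), si:dkey-169i5.4 (0.955), tial1 (0.943), CDNF (0.942) and FAM3D (0.940). For fech they were anpepla (0.866), RAD54L2 (0.863), ctsll (0.860), nars1 (0.855) and sh3d21 (0.843). No gene of the heme synthesis, globin or erythroid lists was among the 5 nearest to any of the 3.

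Extreme values of the members were counted by library, without the same count over all genes. In mutant HS, replicate 3 held the highest of the 3 values for 5 of 8 members and replicate 2 the lowest for 5 of 8. In mutant MB, replicate 2 held the lowest for 5 of 8. A row of the erythroid list (ENSDARG00000074777) was matched to ank1a by human symbol, while the study's supplement names it ank1b. This ankyrin row was at 239, 84.8 and 66.1 CPM in WT HS and at 7.38, 7.16 and 11.03 CPM in mutant HS. Its log2 difference was -3.93 (SE 0.50, adjusted p = 0.0021), the largest change of any row of that list. It was called in 14 of 15 alternatives. Another row of that list, rhag, was at 151 to 253 CPM in all 12 libraries, while gata1a was at 0.40 to 1.23 CPM. The annotation of the rhag row was not checked.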
